A study of Mus musculus with 4 samples.

Results

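Epithelial junction genes encode the proteins that hold neighbouring epithelial cells together, seal the space between them and give each cell a top and a bottom. They were taken from a fixed list of 35 genes, chosen by name but with earlier results of these data known. Each was read through its brightest probe set, among those annotated to that gene alone. All 35 had a probe set, out of 18193 genes named on the array, and 27 of the 35 passed the filter on dim probe sets and were tested among 13331 genes. The other 8 (Tjp3, Marveld2, Marveld3, Dsc2, Pard6b, Esrp1, Esrp2 and Ovol1) lay below the filter, which stood at a mean of 25.7 intensity units. The RNA came from 4 mammary tumours in nude mice, which lack most T cells, 1 Affymetrix mouse array for each tumour. Every graft consisted of Eph4 cells, an established line of mouse mammary epithelial cells, that had been transduced with ETV6-NTRK3 (EN), a fusion of a transcription factor gene with the kinase part of a neurotrophin receptor gene. In 2 tumours, called EN, the cells carried the fusion alone, and in the other 2, called EN-TAM67, they also expressed TAM67, a dominant negative c-Jun that blocks the AP-1 transcription factor. The comparison asks how far tumour formation by the fusion runs through AP-1. Host and graft are both mouse, so a probe set reads tumour and host cells alike, and the promoter that drove the constructs, the number of clones and the age of the mice are not given in the sources used here.

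Epithelial cells are joined by several kinds of contact. Tight junctions, built from claudins, occludin and junctional adhesion molecules on a plaque of Tjp1 and cingulin, seal the sheet near its apical edge. Adherens junctions below them consist of classical cadherins tied to actin through catenins, and beta-catenin (Ctnnb1) also serves as the nuclear effector of Wnt signalling. Desmosomes anchor keratin filaments through desmogleins, desmocollins, plakoglobin, plakophilins and desmoplakin. Gap junctions are channels of connexins, and the Crumbs and Par complexes set the apical domain. In the mammary gland these contacts line the ducts, and their loss is a hallmark of the transition from an epithelial to a mesenchymal state.

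No junction gene passed the threshold between the groups, and 23 of the 27 tested had a measured difference of less than 0.5 either way. In bulk tumours, fewer cells of a type and less RNA per cell cannot be told apart. At the threshold, a limma adjusted p under 0.05, the 27 tested genes gave 0 calls in either direction, where 0.135% of all genes were called higher and 0.420% lower with TAM67, or 0.555% in all. At an unadjusted p under 0.05 in limma, 1 gene was higher (Cdh3) and 3 were lower (Jup, Gjb2 and Ctnnb1), 4 of 27. Of all genes 4.86% were higher and 4.94% lower at that level, 9.80% either way. The 4 widest differences were -1.01 for the connexin gene Gjb2, -0.71 for plakoglobin (Jup), 0.56 for P-cadherin (Cdh3) and 0.52 for claudin 1 (Cldn1). A difference is the mean of the EN-TAM67 tumours minus the mean of the EN tumours, taken on log2(intensity + 16), and each group has n = 2. A difference of 0.5 or more either way was seen in these 4 of 27 and in 12.9% of all genes (7.10% higher and 5.78% lower). The median difference of the 27 was 0.082, with 17 positive and 10 negative, beside 0.019 for all genes, of which 52.2% were positive. It was -0.016 when each array was centred on its median, with 13 positive and 14 negative, and -0.010 without EN-TAM67 tumour 2. Over all 35 genes, dim ones included, the median was also 0.082.

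**Figure D1:**
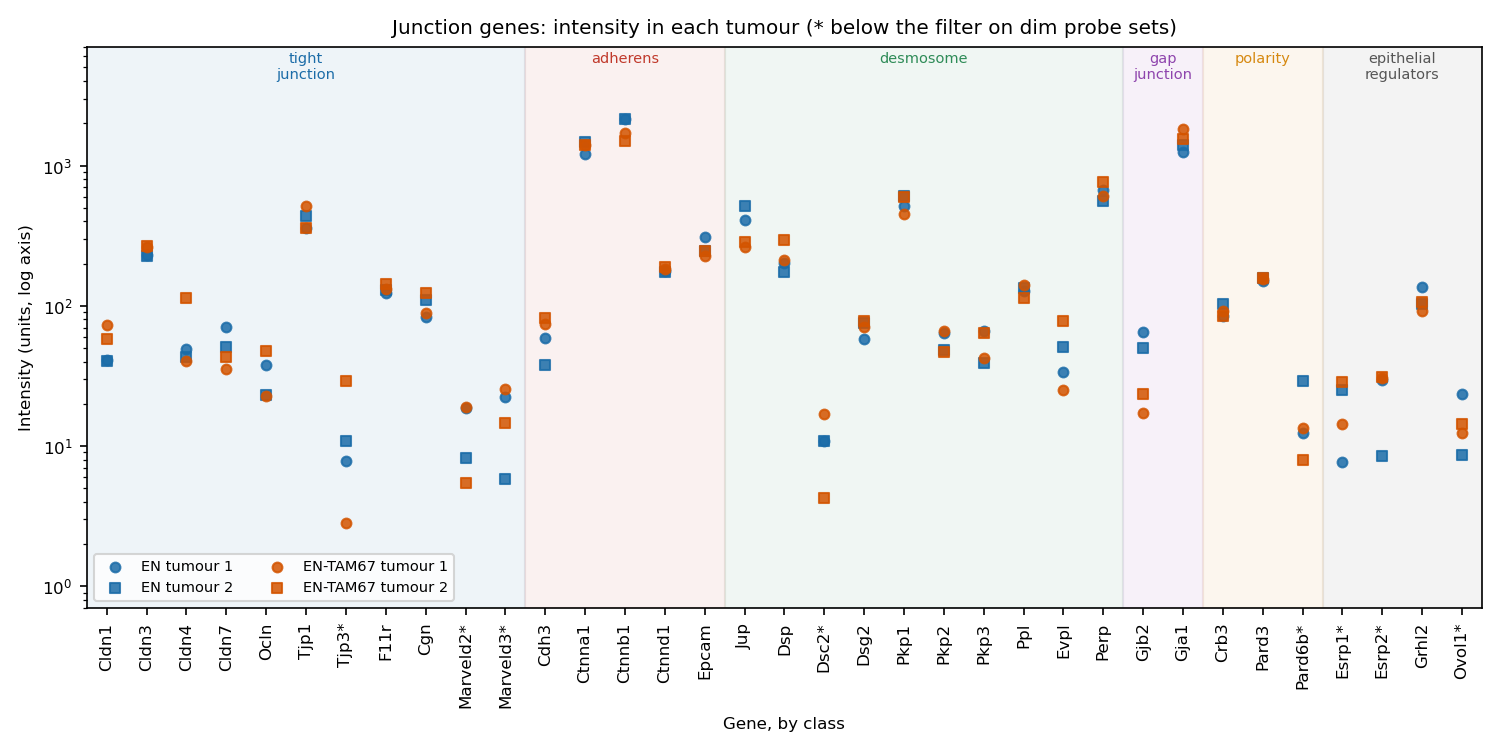
Intensity of the 35 junction genes in each tumour, on a log axis, grouped by class along the horizontal axis; circles are tumour 1 and squares tumour 2 of a group, blue EN and orange EN-TAM67. Each gene is to be read within its own column, since probe sets of different genes are not on 1 scale; the orange points lie below the blue ones for Jup and Gjb2 and above them for Cldn1 and Cdh3.

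**Figure D2:**
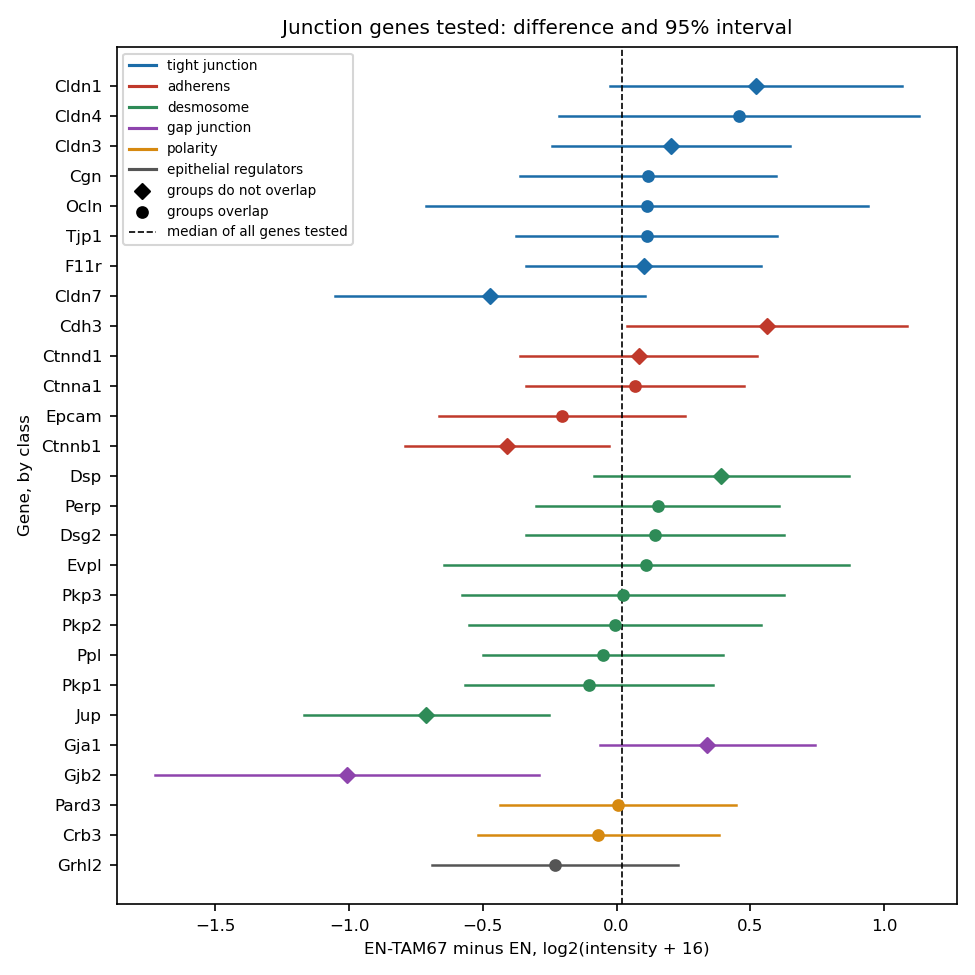
Difference between EN-TAM67 and EN tumours on the log2(intensity + 16) scale for the 27 junction genes tested, with 95% intervals from limma, ordered within classes; diamonds mark genes whose groups do not overlap. The intervals of Jup, Gjb2, Ctnnb1 and Cdh3 leave out 0, and the other 23 span it.

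The spread between the tumours of a group set what could be seen. Standard errors of the 27 differences ran from 0.18 to 0.39, with a median of 0.22. The groups did not overlap for 11 of the 27, with 7 higher and 4 lower in EN-TAM67 tumours, where 40.2% of all genes did not overlap, 20.2% higher and 20.0% lower. The difference was larger than the gap between the tumours of either group for 9 of 27, and for 26.7% of all genes. The labels number the tumours but name neither animals nor cultures, so the p-values here speak only of the spread among these 4 samples, which could be technical. In all, 18 genes were called higher and 56 lower over the whole table, or 7 and 48 after median centring. The array medians were 35.6 and 35.9 units in EN and 38.1 and 40.8 units in EN-TAM67 tumours, and the 3' to 5' signal ratio of Gapdh was 0.938 and 1.04 against 1.17 and 1.11. That of Actb was 1.11 and 1.19 against 1.31 and 1.34, and the 18S control probe sets, averaged on the log2 scale, read 5.43 and 6.40 against 6.76 and 7.43. Each was higher in both EN-TAM67 tumours, and their part in the differences below was not tested.

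The tumours carried an epithelial signal. Krt8 and Krt18, keratins of simple epithelium, read at least 1470 and 683 units in every tumour. Both were lower in EN-TAM67 tumours without overlap (-0.40 and -0.36, adjusted p = 0.477 and 0.644 in limma). Krt7, the other luminal keratin tested, was dim, at 29.8 and 50.1 against 72.3 and 37.2 units with overlap (0.32). Krt14, a basal keratin, read 167 and 149 units in EN and 157 and 425 units in EN-TAM67 tumours, so that EN-TAM67 tumour 2 stood apart. The other basal markers tested went the other way: Krt5 read 65.8 and 66.4 against 41.0 and 33.3 units without overlap (-0.63), and Trp63 differed by -0.28 with overlap. Of the 4 luminal markers Krt19 lay below the filter, and of the 7 markers of skin keratinocytes Krt1, Lor, Flg, Ivl and Krtdap did. The mesenchymal genes Vim and Fn1 were also bright, at 3730 to 5015 and 6279 to 9003 units. E-cadherin (Cdh1), the cadherin of epithelial adherens junctions, read 113 and 89.5 units in EN and 96.1 and 134 units in EN-TAM67 tumours (0.15 ± 0.22 SE, adjusted p = 0.873 in limma).

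Because TAM67 acts on AP-1, the promoters of the junction genes were read for its motif. RefSeq promoters of build GRCm38.p6, 250 bases before to 50 after a start, were held for 20 of the 35 genes, with 28 windows in all, some of which overlap. The AP-1 motif TGANTCA, which reads alike on both strands, was found in 3 of the 20 genes (15.0%), Cldn4, F11r and Gja1, and in 8.97% of all 27025 genes with a promoter in the table. The letters CACCTG, read on both strands, form the E-box that Snail and Zeb repressors bind. They were found in 13 of 20 genes (65.0%), against 22.6% of all genes, or in 17 of 28 windows (60.7%) against 20.2% of all windows, with base composition not matched. The grainyhead motif AACCNGTT does not read alike on both strands and was sought only along the strand of the gene. There it was in 0 of 20 genes and in 1.28% of all genes, and matches on the other strand were not counted. The 250 bases before the start are shown for the 3 genes with the AP-1 motif, in capitals, and for Gjb2, the gene with the widest difference, where capitals mark the E-box read on the other strand (CAGGTG). They lie at chr5:134946935-134947184 (minus strand) for Cldn4, chr1:171437311-171437560 (plus strand) for F11r, chr10:56377050-56377299 (plus strand) for Gja1 and chr14:57104703-57104952 (minus strand) for Gjb2, all in GRCm38.p6 and printed 5′ to 3′ along the gene.
Cldn4: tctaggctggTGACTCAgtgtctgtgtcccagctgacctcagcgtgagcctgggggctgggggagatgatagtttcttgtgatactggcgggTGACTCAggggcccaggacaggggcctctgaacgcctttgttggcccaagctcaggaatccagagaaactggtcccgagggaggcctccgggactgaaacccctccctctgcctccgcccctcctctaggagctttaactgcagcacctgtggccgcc
F11r: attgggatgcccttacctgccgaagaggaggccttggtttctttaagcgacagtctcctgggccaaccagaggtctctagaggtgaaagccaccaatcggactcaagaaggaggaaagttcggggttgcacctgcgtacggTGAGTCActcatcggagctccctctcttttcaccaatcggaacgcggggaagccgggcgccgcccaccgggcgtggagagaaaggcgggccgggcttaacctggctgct
Gja1: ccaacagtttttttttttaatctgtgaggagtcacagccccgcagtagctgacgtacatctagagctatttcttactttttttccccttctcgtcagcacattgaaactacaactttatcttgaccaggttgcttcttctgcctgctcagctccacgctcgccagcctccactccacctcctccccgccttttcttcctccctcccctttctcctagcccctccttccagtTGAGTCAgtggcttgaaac
Gjb2: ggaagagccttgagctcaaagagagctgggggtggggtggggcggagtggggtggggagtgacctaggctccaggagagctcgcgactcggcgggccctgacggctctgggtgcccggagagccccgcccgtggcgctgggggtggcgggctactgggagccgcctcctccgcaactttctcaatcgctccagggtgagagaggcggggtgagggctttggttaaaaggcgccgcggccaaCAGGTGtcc
The AP-1 matches begin 240 and 158 bases before the start in Cldn4, 109 in F11r and 19 in Gja1, and the E-box of Gjb2 begins 9 bases before it. A match is a run of letters and not evidence of binding. In EN-TAM67 tumours the 3 genes with the AP-1 motif had differences of 0.46 (Cldn4), 0.10 (F11r) and 0.34 (Gja1), none past the threshold.

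Among tight junction genes, 7 of the 8 tested were positive and Cldn7 alone was negative, with a median of 0.12 and 0 called in either direction. Leaving out EN-TAM67 tumour 1 gave 0.27 and leaving out tumour 2 gave -0.018, median centring gave 0.018, and across all 11 genes of the class, 3 of them dim, it was 0.12. Claudins are the tetraspan membrane proteins that decide which ions and solutes cross the junction, and the 4 on the list did not share a direction. Claudin 1 (Cldn1) read 41.2 and 40.1 units in EN and 73.1 and 58.2 units in EN-TAM67 tumours. Both EN-TAM67 tumours were above both EN tumours, by 0.52 ± 0.26 (SE, adjusted p = 0.538 in limma). A second Cldn1 probe set above the filter read 31.1 and 47.4 against 29.0 and 40.6 units and overlapped (-0.12). The mean of the gene's probe sets above the filter gave 0.20. Those below the filter were higher in EN-TAM67 tumours without overlap. They read 15.9 and 17.3 against 24.5 and 28.1 units (0.37) and 1.22 and 8.64 against 16.7 and 49.8 units (1.17). Claudin 3 (Cldn3) read 231 and 225 units in EN and 263 and 267 units in EN-TAM67 tumours, a difference of 0.20 ± 0.21 (SE). All 4 of its probe sets were positive, from 0.20 to 0.33, and none of them overlapped between the groups. The values of the first probe set were close within each group, and its interval ran from -0.24 to 0.65. The others were more spread. Another read 131 and 148.2 against 148.6 and 194 units and the dimmest 108 and 87.4 against 111 and 141 units, so that their groups were only just apart.

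The value of claudin 4 (Cldn4) turned on a single tumour. It read 49.4 and 43.3 units in EN tumours and 40.6 and 113 units in EN-TAM67 tumours, the high value being tumour 2. Its difference of 0.46 became -0.14 when that tumour was left out and 1.06 when the other was. Claudin 7 (Cldn7) went the other way, at 71.0 and 51.0 units in EN and 35.3 and 42.9 units in EN-TAM67 tumours. The groups did not overlap, and the difference was -0.47 ± 0.28 (SE, adjusted p = 0.611 in limma), or -0.28 without EN tumour 1 and -0.27 with a pseudocount of 64.

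The scaffold genes of the tight junction, Tjp1 and Cgn, overlapped between the groups. Tjp1, the ZO-1 scaffold that ties the junction to actin, read 356 and 437 units in EN and 512 and 357 units in EN-TAM67 tumours, and the groups overlapped. Its difference of 0.11 had a 95% interval of -0.37 to 0.60. Cingulin (Cgn), a cytoplasmic plaque protein, read 83.0 and 109.6 against 89.0 and 124 units, with tumour 2 the higher of each group. F11r, the junctional adhesion molecule JAM-A, read 124 and 129.7 units in EN and 132 and 143 units in EN-TAM67 tumours, a narrow step of 0.10. Its other probe set went the opposite way without overlap, at 48.2 and 53.5 against 38.3 and 34.5 units (-0.35). Occludin (Ocln), a tetraspan protein of the seal, read 37.7 and 23.1 against 22.6 and 47.9 units, so that both extremes lay in the EN-TAM67 group. Tjp3, Marveld2 (tricellulin, which seals the corners between cells) and Marveld3 read 2.83 to 28.9 units and were too dim to test.

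In the adherens class 5 of 5 genes were tested, 3 positive and 2 negative, with a median of 0.069 and 0 called in either direction. By choice, Epcam was counted in this class, and Jup, which also sits in adherens junctions, was counted with the desmosome genes. The median was -0.029 with median centring and -0.026 with the mean of each gene's probe sets. Beta-catenin (Ctnnb1) was lower in EN-TAM67 tumours on each of its 3 probe sets. It read 2130 and 2137 units in EN and 1706 and 1503 units in EN-TAM67 tumours, a step wider than the gap between the tumours of either group. The difference was -0.41 ± 0.18 (SE, 95% interval -0.79 to -0.029, adjusted p = 0.468 in limma). The other probe sets read 540 and 387 against 313 and 273 units (-0.62) and 443 and 355 against 245 and 231 units (-0.70). All 3 were lower in both EN-TAM67 tumours, and none passed the threshold when every probe set was tested (adjusted p = 0.484, 0.380 and 0.280 in limma).

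P-cadherin (Cdh3), the classical cadherin of basal mammary epithelium, read 58.7 and 37.6 units in EN and 73.6 and 81.4 units in EN-TAM67 tumours. Both EN-TAM67 tumours were higher, by 0.56 ± 0.25 (SE, adjusted p = 0.471 in limma), a value of 0.32 without EN tumour 2 and 0.34 with a pseudocount of 64. The other Cdh3 probe set lay below the filter, at 12.2 and 26.4 against 22.5 and 29.5 units with overlap (0.28). Alpha-catenin (Ctnna1), which links beta-catenin to actin, read 1206 and 1481 units against 1398 and 1409. The groups overlapped, and the interval of its difference of 0.069 ran from -0.34 to 0.48. One of its probe sets was far dimmer and behaved differently, at 20.4 and 14.3 units in EN and 73.7 and 66.2 units in EN-TAM67 tumours (1.37 ± 0.31 SE, adjusted p = 0.101 in limma over all probe sets). Which part of the transcript it reads was not analysed here. p120-catenin (Ctnnd1), which keeps cadherins at the cell surface, read 178 and 174 against 184 and 189.96 units (0.082). A second Ctnnd1 probe set read 91.8 and 65.4 against 46.5 and 43.4 units (-0.62) and the dimmest 23.3 and 23.0 against 36.0 and 39.8 units (0.46), each without overlap and in opposite directions. Epcam, a homophilic adhesion protein of simple epithelia, read 307 and 246 units in EN and 226 and 248 units in EN-TAM67 tumours, with EN tumour 1 the highest (-0.20 ± 0.22 SE). The Epcam difference was -0.054 without that tumour and -0.36 without EN tumour 2. A much dimmer Epcam probe set, below the filter at 9.44 to 22.1 units, was lower in both EN-TAM67 tumours without overlap (-0.35).

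**Figure D3:**
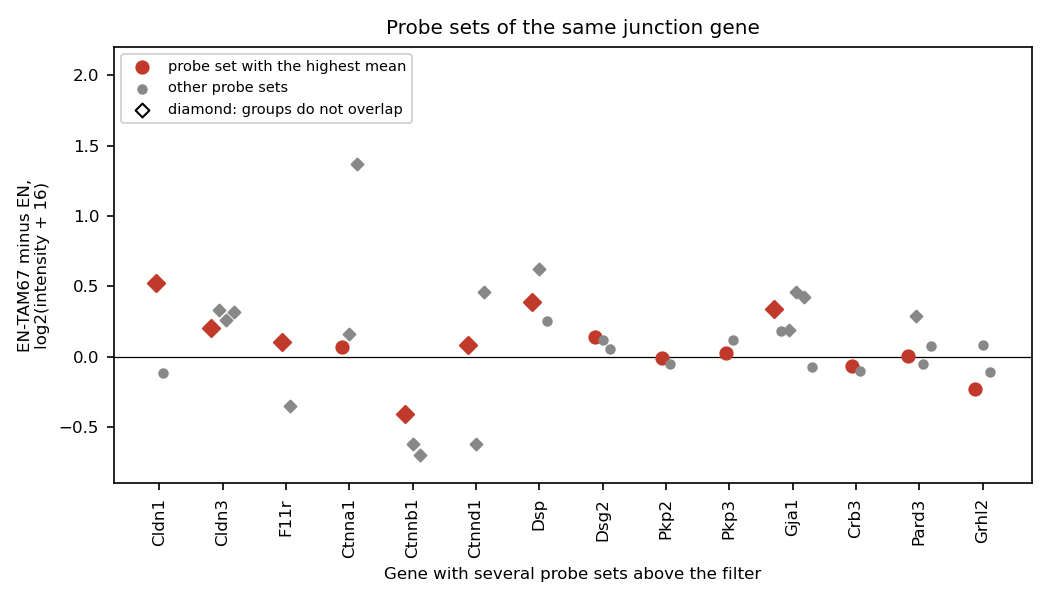
Difference between EN-TAM67 and EN tumours, on the log2(intensity + 16) scale, of each probe set above the filter for the 14 junction genes with several; red marks the probe set with the highest mean, grey the others, and diamonds mark groups that do not overlap. The 3 probe sets of Ctnnb1 lie together below 0 and the 4 of Cldn3 together above it, while those of Ctnnd1 run from -0.62 to 0.46 and Ctnna1 has 1 probe set at 1.37.

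Desmosome genes were split, with 5 of the 9 tested positive and 4 negative, a median of 0.024 and 0 called in either direction. That median was -0.043 with quantile normalization, -0.074 with median centring and 0.21 without EN-TAM67 tumour 1. Plakoglobin (Jup), the armadillo protein shared by desmosomes and adherens junctions, had the lowest adjusted p of the 27 genes. It read 409 and 512 units in EN and 262 and 285 units in EN-TAM67 tumours. Both EN-TAM67 tumours lay well below both EN tumours, 1.64-fold on this scale, a difference of -0.71 ± 0.22 (SE, 95% interval -1.17 to -0.25, adjusted p = 0.239 in limma). Jup has 1 probe set, and its value stayed between -0.55 and -0.87 over the alternatives, the latter without EN tumour 1, where its adjusted p was 0.0784. Its relative beta-catenin also had lower readings in EN-TAM67 tumours, while alpha-catenin did not.

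Desmoplakin (Dsp), which ties the plaque to keratin, stood on the other side. It read 201 and 174 units in EN and 213 and 294 units in EN-TAM67 tumours, so that both EN-TAM67 tumours were higher, although EN-TAM67 tumour 1 only just. The difference was 0.39 ± 0.23 (SE, adjusted p = 0.610 in limma), or 0.17 with EN-TAM67 tumour 2 left out and 0.61 with tumour 1 left out. All 3 Dsp probe sets were positive (0.39, 0.62 and 0.25). Perp, a tetraspan desmosome protein and target of p53 family factors, read 674 and 555 units against 607 and 766, and the groups overlapped. The plakophilins, armadillo proteins of the plaque, showed no shared direction. Pkp1 read 513 and 608 against 450.2 and 598 units, Pkp2 differed by -0.0069 and Pkp3 by 0.024, each with overlap, and their intervals reached from -0.58 to 0.63 at the widest.

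The remaining desmosome genes also overlapped between the groups. Periplakin (Ppl), a cytolinker of the plakin family, read 128 and 135 against 141 and 114 units, and its interval of -0.50 to 0.40 was centred near 0. Envoplakin (Evpl), its partner, was spread widely, at 33.5 and 50.7 units in EN and 25.2 and 77.4 units in EN-TAM67 tumours. Its difference of 0.11 turned to -0.48 with EN-TAM67 tumour 2 left out and was 0.70 with tumour 1 left out. Desmoglein 2 (Dsg2), the desmoglein of simple epithelia, read 57.7 and 74.8 against 70.4 and 78.5 units (0.14), and its 3 probe sets above the filter were all positive, from 0.054 to 0.14. Desmocollin 2 (Dsc2), its usual partner, read 4.28 to 16.8 units and was not tested.

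The connexin genes Gjb2 and Gja1 pointed apart, with 0 of 2 called. Connexin 26 (Gjb2), a channel of luminal and secretory epithelium, read 64.9 and 49.7 units in EN and 17.2 and 23.6 units in EN-TAM67 tumours. Both EN-TAM67 tumours lay below both EN tumours and below the medians of their own arrays. The difference was -1.01 ± 0.34 (SE, 95% interval -1.73 to -0.29, adjusted p = 0.302 in limma). Its size rests on the pseudocount, at -1.45 with a pseudocount of 1 and -0.52 with 64, and Gjb2 has 1 probe set. Connexin 43 (Gja1), found in basal mammary epithelium and in stromal cells alike, read 1247 and 1401 units in EN and 1819 and 1546 units in EN-TAM67 tumours. The groups did not overlap, and the difference was 0.34 ± 0.19 (SE, adjusted p = 0.590 in limma). Of its 6 probe sets, 5 were positive, from 0.18 to 0.46, and the dimmest was at -0.075. The difference was 0.22 without EN-TAM67 tumour 1.

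Of the 3 polarity genes 2 were tested, and of the 4 epithelial regulators 1, with 0 called. Pard3, the scaffold of the Par complex, was the member with the smallest difference, at 151 and 158 units in EN and 154 and 157 units in EN-TAM67 tumours (0.0051 ± 0.21 SE, interval -0.44 to 0.45). Of its 4 probe sets, 1 stood apart without overlap, at 127 and 123 against 157 and 155 units (0.29). Crb3, the Crumbs protein of the apical membrane, read 84.5 and 103.6 against 92.1 and 85.1 units (-0.068), and the groups overlapped. Pard6b, an adaptor of the same complex as Pard3, read 7.91 to 29.3 units and was not tested. Grhl2, the grainyhead factor that drives many junction genes, read 136 and 103 units in EN and 91.3 and 106 units in EN-TAM67 tumours (-0.23 ± 0.22 SE, adjusted p = 0.775 in limma). Its difference was -0.057 without EN tumour 1, -0.41 without EN tumour 2 and -0.087 with its probe sets averaged. The other probe sets above the filter differed by 0.081 and -0.11, so that no direction was shared. The splicing regulators Esrp1 and Esrp2 and the repressor Ovol1 read 7.72 to 31.2 units. Of these, Esrp2 had groups that did not overlap, although EN tumour 1 lay close to the EN-TAM67 tumours, at 29.4 and 8.52 units in EN against 30.7 and 31.2 in EN-TAM67 tumours.

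The EN-TAM67 tumours also differed from each other in the junction genes. Of the 27 genes tested, 20 (74.1%) were higher in EN-TAM67 tumour 2 than in EN-TAM67 tumour 1, where 49.1% of all genes were. Between the EN tumours, 13 of 27 were higher in tumour 2 (48.1%, against 57.1% of all genes). The gap from EN-TAM67 tumour 1 to tumour 2 was widest for Cldn4 (1.19), Evpl (1.18) and Ocln (0.73), followed by Pkp3 (0.45) and Dsp (0.44), and Tjp1 had the widest gap the other way (-0.50). EN-TAM67 tumour 2 was also the tumour with the high Krt14 reading of 425 units, while Krt5 was at its lowest there. The summed intensity of 5 adipocyte markers was 418 and 281 units in EN and 807 and 4023 units in EN-TAM67 tumours, again highest in tumour 2 and with no marker at 0. Adipoq, Fabp4 and Retn of that list passed the threshold. Their part in this gap was not tested.

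**Figure D4:**
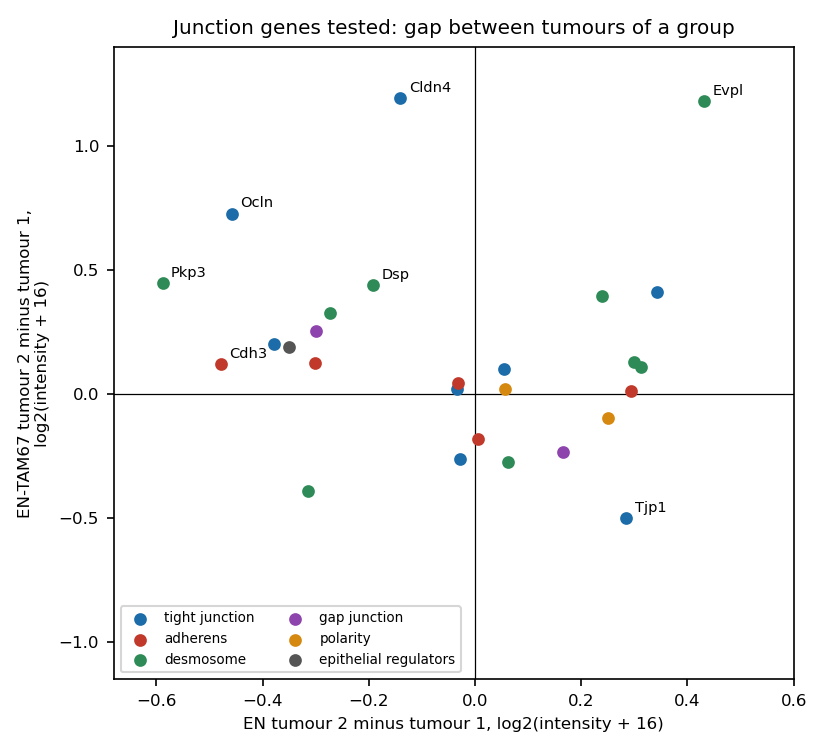
Gap between the tumours of a group for the 27 junction genes tested: EN tumour 2 minus tumour 1 across and EN-TAM67 tumour 2 minus tumour 1 upwards, both on the log2(intensity + 16) scale, with classes in colour and the widest gaps named. Upwards, 20 of the 27 points lie above 0, led by Cldn4 at 1.19 and Evpl at 1.18, while across they fall on both sides.

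Of 64 further junction genes on a second list, 60 had a probe set, 46 were tested and 0 were called in either direction, with 25 positive, 21 negative and a median of 0.069. At an unadjusted p under 0.05 in limma, 2 of the 46 were higher and 4 lower, where 4.86% and 4.94% of all genes were. The lowest were VE-cadherin (Cdh5), the cadherin of endothelium, at -0.74 (adjusted p = 0.289 in limma, or -1.12 with adjusted p = 0.0179 without EN tumour 1), the protease inhibitor Spint1 at -0.73 and Cldn10 at -0.72, and only for Cdh5 did the groups not overlap. Another Cdh5 probe set read 50.9 and 45.0 against 72.3 and 30.9 units and overlapped (0.012). The highest were the atypical protein kinase C gene Prkcz, at 72.2 and 43.1 units in EN and 86.0 and 109.1 units in EN-TAM67 tumours (0.65), desmocollin 3 (Dsc3, 0.65) and Jam2 (0.59), all without overlap, although another Jam2 probe set stood at -0.26 with overlap. With every probe set tested separately, 1 of these genes was called lower, where 20 of all 22555 probe sets were called higher and 52 lower. A second probe set of Nectin3, a nectin of adherens junctions, read 109.6 and 109.2 units in EN and 35.4 and 42.9 units in EN-TAM67 tumours (-1.19 ± 0.23 SE, adjusted p = 0.0473 in limma). All 4 Nectin3 probe sets above the filter were negative, the brightest at -0.69 without overlap, while 1 below it stood at 1.11.

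The measured levels of markers of other cells also differed between the groups. Of the fibroblast, macrophage, endothelial, luminal, basal and keratinocyte markers, 0 were called in either direction. The 7 fibroblast markers summed to 15176 to 21553 units in EN and 12425 to 14266 in EN-TAM67 tumours, and 6 of 7 were negative with a median of -0.73. The 6 macrophage markers summed to 11421 to 13981 against 7026 to 8633 units, all negative with a median of -0.60, and the 7 endothelial markers to 525 to 677 against 397 to 453 units. The 4 luminal keratins summed to 2803 to 3174 units in EN and 2214 to 2355 in EN-TAM67 tumours. Krt8 and Krt18, by far the brightest of them, were negative, and Krt7, the only other tested, was positive. The 4 basal markers summed to 323 to 375 against 284 to 600 units, with 1 of the 3 tested positive and 2 negative. The 7 keratinocyte markers summed to 149 to 175 against 185 to 190 units, with 5 of the 7 below the filter. The 5 skeletal muscle markers summed to 128 to 158 against 258 to 271 units. Of these, Myh1 alone was called higher, at 39.0 and 59.6 against 142 and 163 units (1.39, adjusted p = 0.00923 in limma), while Ckm (-0.0044) and Acta1 (0.19) overlapped and Myh4 and Tnnt3 lay below the filter. None of these lists had a marker at 0. Of the 8 mesenchymal genes 7 were tested, 2 positive and 5 negative with a median of -0.053, and 0 were called. The E-box repressors among them did not share a direction. Snai1 read 186 and 274 units in EN and 115 and 130 units in EN-TAM67 tumours (-0.81 ± 0.23 SE, adjusted p = 0.190 in limma). Zeb2 read 145 and 185 against 298 and 175 units and overlapped (0.44, adjusted p = 0.592 in limma), with all 4 of its probe sets above the filter positive. Zeb1 (-0.088), Snai2 (-0.025) and Twist1 (-0.053) also overlapped, and Fn1 was lower without overlap (-0.36, adjusted p = 0.414 in limma). The part of these cells in the values of the junction genes was not tested.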

How the data were processed

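The deposited intensity values are linear, 45101 to an array, and cover 4 Affymetrix arrays; the authors' probe summary, background correction and scaling are not given in the sources used here. Per the labels, RNA was extracted with Trizol, column-cleaned, and labelled as biotinylated cRNA. Precision is limited by having 4 arrays. The platform annotation gave 34945 probe sets 1 symbol, 932 several and 9160 none, and a RefSeq table (GRCm38.p6) matched by Entrez ID changed 0 of them.

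Values were analysed as log2(intensity + 16), which understates the change of dim genes. Controls and the dimmest 40% of probe sets by mean were left out, which kept 27022, and the probe set with the highest mean stood for each gene. The comparison used limma 3.58.1 (R 4.3.3), with an eBayes trend on intensity, two-sided p-values, Benjamini-Hochberg adjustment over all 13331 genes and a threshold of 0.05, with 95% intervals from the same fit. The fit was also run on simulated data with changes placed in the brighter genes only. That run does not show how often dim genes, or changes smaller than those simulated, would be called. No p was adjusted over the list alone. Alternatives were other pseudocounts, filters, scalings, probe set rules and variance models, a replicate block, leaving out single arrays, and a threshold of 0.10. Per-tumour values are given for members with a difference of at least 0.5, the brightest of each class, members whose probe sets disagree and others that a class turns on, and of the second list for the extremes. The members, classes and lists were chosen with earlier results of these data known. Plots were drawn with matplotlib.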

Additional observations from a re-analysis of the deposited data

How the results depend on the processing

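No junction gene passed the threshold of 0.05 in any refit of the 16 alternatives, or at 0.10 in the fit reported; the lowest adjusted p of a member ran from 0.0784 (without EN tumour 1) to 0.472 in limma. Of 402 refitted differences of single members, 372 kept their direction and 30 did not, and 11 of the 27 members never changed sign. Refits that changed only the filter, the variance model or the replicate block left a member's difference as it was, so its direction could not change there. Nor could it with every probe set tested separately, where the brightest probe set of the member was counted. Over all genes, 18 were called higher and 56 lower; the counts were 9 and 29 with quantile normalization, 7 higher with median centring, 7 and 28 with averaged probe sets, 1 and 4 without the intensity trend, and 29 higher at a threshold of 0.10. With the tumour number as a replicate block 3 were higher and 8 lower. Nothing in the labels ties equal tumour numbers together, and same-numbered tumours did not deviate together (correlation -0.065 across genes). With 1 array left out, 11 to 71 genes were higher and 11 to 85 lower, the lone tumour of its group being assumed to vary like the other group.

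The median of the tested members (0.082) was -0.016 with median centring and -0.023 to 0.10 with 1 array left out. With 1 array left out the class medians ran, at their widest, from -0.018 to 0.27 for tight junction, from -0.054 to 0.075 for adherens and from -0.010 to 0.21 for desmosome genes. The adherens median was -0.029 with median centring and -0.026 with averaged probe sets, and the polarity median was -0.13 with median centring. The gap junction median of -0.33 rests on 2 genes of opposite sign and was -0.55 and -0.096 with pseudocounts of 1 and 64, 0.34 with the dimmest 60% left out, where only Gja1 was left, -0.43 with median centring, -0.38 with averaged probe sets and 0.19 over all probe sets. The regulators, with Grhl2 alone above the filter (-0.23), had a median of 0.076 with no filter, where 4 genes entered. Of the second list, 1 gene was called with every probe set tested separately (Nectin3, -1.19) and 1 without EN tumour 1 (Cdh5, -1.12, adjusted p = 0.0179 in limma), and 0 to 1 with 1 array left out.

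Signs that changed by setting were those of Ctnna1 (-0.029), Ctnnd1 (-0.016), Pard3 (-0.093) and Pkp3 (-0.074) with median centring, of Pard3 (-0.012) and Pkp3 (-0.043) with quantile normalization, and of Ctnnd1 (-0.026) and F11r (-0.12) with averaged probe sets. With 1 array left out the ranges were -0.087 to 0.32 for Cgn, -0.14 to 1.06 for Cldn4, -0.19 to 0.057 for Crb3, -0.077 to 0.22 for Ctnna1, -0.0068 to 0.29 for Dsg2, -0.48 to 0.70 for Evpl, -0.25 to 0.48 for Ocln, -0.023 to 0.033 for Pard3, -0.010 to 0.32 for Perp, -0.30 to 0.095 for Pkp1, -0.20 to 0.19 for Pkp2, -0.27 to 0.32 for Pkp3, -0.19 to 0.087 for Ppl and -0.14 to 0.36 for Tjp1. The causes were not tested. Median centring lowered the median of all genes from 0.019 to -0.080.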
